A study of Mus musculus with 12 samples.

Results

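The genes described here are those of major histocompatibility complex (MHC) class I and of the machinery that loads its peptides. The 10 listed genes are H2-D1, H2-K1, H2-T23, B2m, Tap1, Tap2, Tapbp, Tapbpl, Calr and Pdia3. They were found on the array through the RefSeq accession printed for each probe, and where a gene had several probes the brightest was used. A probe was found for 9 of the 10 and not for H2-K1, for which no value is given. Each of the 9 exceeded background in Cy5 on every one of the 12 arrays, so none entered through 1 group alone. They are 9 of 11095 genes tested.

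Class I molecules carry short peptides from inside a cell to its surface, where CD8+ T cells and natural killer cells inspect them. Cytosolic peptides are made by the proteasome, pumped into the endoplasmic reticulum by the transporter Tap1-Tap2, and loaded onto a heavy chain paired with the light chain B2m. Tapasin (Tapbp), calreticulin (Calr) and the thiol oxidoreductase ERp57 (Pdia3) hold the empty molecule during loading. Dendritic cells use this route both for their own proteins and for captured antigen, and raise it on maturation.

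The series measured mRNA of mouse dendritic cells. Bone marrow was depleted of B and T cells and kept for 5 days in GM-CSF (10 ng/ml) plus IL-4 (5 ng/ml), then left unstimulated or given LPS, a bacterial cell wall component, at 100 ng/ml for 1, 6 or 24 h. Each of the 4 groups held 3 biological replicates with donor letters A, B and C. All groups shared the depletion and the cytokines, the unstimulated cells were taken at 0 h, and the labels used here name no mouse strain and no sort before RNA extraction. Every LPS effect below is therefore a difference from 0 h, in which LPS and the added culture time or handling cannot be told apart. Each array set a Cy5-labelled sample against a Cy3-labelled pool of mouse RNA that was common to all arrays, and a level below is the log2 ratio of Cy5 to Cy3. Ratios of different genes are not compared as amounts, because each is set against that gene's own level in the pool.

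Arrays of 1 group correlated across genes at r = 0.946 to 0.984, and 48.1 to 57.6% of probes per array were well above background in Cy5. The arrays lay on 4 slides. The 3 unstimulated arrays shared slide 1 with the 1 h array of A, and no slide held unstimulated cells beside 6 h or 24 h cells. Of 14 markers of conventional dendritic cells, 11 were above background on all 3 unstimulated arrays, including Itgax and Zbtb46, while Clec9a and Cd209a were above background on no array. Neutrophil markers were also present. Their summed Cy5 intensity was 41600 to 68800 units in unstimulated samples, 9820 to 22200 at 1 h, 6930 to 10500 at 6 h and 3810 to 15200 at 24 h, with 9 of 13 measured markers above background on every unstimulated array and Elane and Retnlg on none of the 12. The dendritic cell sum was 97600 to 131000 at 0 h, 122000 to 152000 at 1 h, 128000 to 186000 at 6 h and 152000 to 174000 at 24 h. The macrophage and monocyte sum was 132000 to 149000, 170000 to 191000, 149000 to 186000 and 96200 to 107000 at these times. Plasmacytoid dendritic cell markers summed to 9120 to 11800, 8630 to 12400, 37700 to 40900 and 41500 to 50300, and T cell markers to 8960 to 11900, 4300 to 8190, 3490 to 5880 and 3240 to 6080. Siglech and Cd3d were above background on no array. Members of each of these lists went both ways. Of 10 tested neutrophil markers 2 were higher and 7 lower at 6 h and at 24 h. Lcn2 rose 3.77-fold and 8.28-fold, while S100a8 fell 11.5-fold and 10.4-fold. Of 9 tested macrophage and monocyte markers 2 were higher and 1 lower at 6 h, and 2 higher and 5 lower at 24 h. At 24 h Cd14 rose 23.3-fold and Mrc1 fell 7.58-fold. Of 12 tested dendritic cell markers 4 were higher and 1 lower at both times. Of 7 tested plasmacytoid markers 2 were higher and 2 lower at 6 h, and 1 higher and 2 lower at 24 h. Bst2 rose 5.42-fold and 7.3-fold at 6 h and 24 h, while Spib fell 2.11-fold and 2.68-fold. Of 4 tested T cell markers 1 was higher (Lck) and 2 lower at 6 h, and 1 higher and 1 lower at 24 h. Over all genes 16.1% were higher and 23.5% lower at 6 h, and 18.0% and 21.5% at 24 h. These sums differed between the groups compared below, and their part in the results was not tested. In such bulk RNA, fewer cells of a type and less RNA per cell cannot be told apart.

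Promoter windows were available for 8 of the 10 genes, from RefSeq on build GRCm38.p6; Tap2 and Tapbpl had none in the table. The bases upstream of the transcription start are shown for 5 genes, 5′ to 3′ on the gene's own strand: the heavy chains H2-D1 and H2-T23 and the light chain B2m, which carried the called rises at 1 h, Tap1, the transporter gene with the steepest rise at 6 h, and Calr, called lower at 24 h by its brighter probe alone. Capitals mark matches to an interferon response element (GAAA, any 2 bases, GAAA), to the NF-kB consensus or, in Calr, to the ER stress response element (CCAAT, any 9 bases, CCACG), each searched on both strands; the Tap1 bases hold none. H2-D1 lies at chr17:35262844-35263093 on the forward strand, H2-T23 at chr17:36032702-36032951 on the reverse strand, B2m at chr2:122147437-122147686 on the forward strand, Tap1 at chr17:34187306-34187555 on the forward strand and Calr at chr8:84846932-84847181 on the reverse strand.
H2-D1: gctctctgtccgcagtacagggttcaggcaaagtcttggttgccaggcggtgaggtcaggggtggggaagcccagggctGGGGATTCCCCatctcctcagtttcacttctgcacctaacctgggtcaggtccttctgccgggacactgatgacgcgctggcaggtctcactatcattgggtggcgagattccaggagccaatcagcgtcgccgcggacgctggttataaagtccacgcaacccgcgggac
H2-T23: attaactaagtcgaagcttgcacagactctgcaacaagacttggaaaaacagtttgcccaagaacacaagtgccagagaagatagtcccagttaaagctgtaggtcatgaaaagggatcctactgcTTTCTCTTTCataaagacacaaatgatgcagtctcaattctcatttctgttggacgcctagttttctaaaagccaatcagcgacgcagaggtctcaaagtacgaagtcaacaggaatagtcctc
B2m: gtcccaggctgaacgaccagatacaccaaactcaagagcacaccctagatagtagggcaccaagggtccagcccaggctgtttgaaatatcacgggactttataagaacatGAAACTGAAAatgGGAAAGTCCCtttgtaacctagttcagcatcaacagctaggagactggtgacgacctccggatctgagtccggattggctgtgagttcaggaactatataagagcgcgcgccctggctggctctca
Tap1: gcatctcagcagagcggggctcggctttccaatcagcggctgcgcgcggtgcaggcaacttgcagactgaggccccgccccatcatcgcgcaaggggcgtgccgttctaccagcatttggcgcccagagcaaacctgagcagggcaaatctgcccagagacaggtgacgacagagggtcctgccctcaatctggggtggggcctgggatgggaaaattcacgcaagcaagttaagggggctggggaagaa
Calr: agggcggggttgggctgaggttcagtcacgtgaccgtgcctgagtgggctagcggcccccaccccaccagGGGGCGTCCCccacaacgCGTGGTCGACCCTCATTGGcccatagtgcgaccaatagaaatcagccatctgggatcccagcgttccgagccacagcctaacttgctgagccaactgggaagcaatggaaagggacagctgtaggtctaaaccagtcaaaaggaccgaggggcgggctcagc

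An interferon response element was found in B2m (GAAACTGAAA, positions -139 to -130 relative to the start) and in H2-T23 on the opposite strand (TTTCTCTTTC, -124 to -115). The searched windows run a short way past the start, and 3.44% of all 32851 such windows in the table hold one. The NF-kB consensus was matched in H2-D1 by GGGGATTCCC, in B2m by GGAAAGTCCC (-126 to -117, just downstream of its interferon element), in both windows of H2-K1, and in Calr by GGGGCGTCCC. Such a match occurs in 8.46% of all windows. In H2-D1 the match began at -171 and overlapped a further match shifted by 1 base. A narrower NF-kB pattern tried first, present in 2.92% of windows, matched B2m alone. A shorter interferon regulatory factor core (AA, any 2 bases, GAAA), which every interferon response element contains, was present in H2-D1, H2-K1, H2-T23, B2m and Calr and in 23.9% of all windows. The Tap1, Tapbp and Pdia3 windows held none of these. All 8 windows held a CCAAT box, against 37.4% of all windows, and 5 of the 8 held TGACG, a core of the cAMP response element, against 20.8%. The ER stress response element of Calr, a sequence known from promoters of endoplasmic reticulum chaperones, was found in 0.119% of windows. These matches describe the letters of the windows, and no binding was measured.

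H2-D1, a heavy chain that presents peptides to CD8+ T cells, had its highest level at 24 h. In samples A, B and C its log2 ratio was 0.79, 0.04 and 0.91 in unstimulated cells, and 1.62, 1.64 and 1.05 after 1 h. It was 2.05, 2.17 and 1.80 after 6 h and 2.45, 3.04 and 2.75 after 24 h. No 2 groups overlapped, although the lowest 1 h sample lay just 0.14 above the highest unstimulated sample, and unstimulated sample B stood well below A and C. The group means were 0.58 ± 0.47, 1.43 ± 0.34, 2.01 ± 0.19 and 2.75 ± 0.30 (SD, n = 3 each). H2-D1 was 2.69-fold higher than unstimulated at 6 h (log2 difference 1.43, SE 0.24, limma adjusted p = 0.00048) and 4.49-fold higher at 24 h (2.17, SE 0.24, adjusted p = 2.7e-05). The 24 h level was 1.67-fold above the 6 h level (0.74, adjusted p = 0.048), but this step lost its call with slide as a block (0.66, adjusted p = 0.17), with median centring in place of loess (0.31, adjusted p = 0.41) and without 5 of the 6 single arrays involved, the exception being the 24 h array of A. The step from 1 h to 6 h did not pass (0.57, adjusted p = 0.096), while a model that blocks on slide called it (0.92, adjusted p = 0.028). The array's probe letters were not used here, and class I genes share long near-identical stretches, so signal of H2-D1 cannot be told apart from that of H2-K1 or the H2-Q genes.

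H2-T23 encodes Qa-1, a nonclassical heavy chain that presents leader peptides of other class I molecules to receptors of natural killer cells. Its log2 ratios were 1.13, 0.93 and 1.41 at 0 h, 1.89, 1.66 and 1.52 at 1 h, 2.91, 2.86 and 2.67 at 6 h, and 2.68, 2.94 and 2.75 at 24 h. The 6 h and 24 h samples lay together and apart from all samples at 0 h and 1 h. The increase over unstimulated cells was 3.15-fold at 6 h (1.66, SE 0.15, adjusted p = 3.7e-06) and 3.1-fold at 24 h (1.63, SE 0.15, adjusted p = 6.3e-06). Between 6 h and 24 h the difference was -0.02, with a 95% interval from -0.34 to 0.30.

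B2m, the light chain common to all of these heavy chains, was the least variable of the rising genes within groups, with a pooled SD of 0.13. It stood at -0.50, -0.35 and -0.22 at 0 h and at 0.13, 0.04 and 0.25 at 1 h. After 6 h it was at 0.87, 1.05 and 0.96 and after 24 h at 1.11, 1.42 and 1.30, so that no group overlapped another. It was 2.49-fold higher at 6 h (1.32, SE 0.12, adjusted p = 5.1e-06) and 3.1-fold higher at 24 h (1.63, SE 0.12, adjusted p = 1.5e-06). The further difference of 0.31 between 6 h and 24 h did not pass the test (adjusted p = 0.096). A dimmer B2m probe, printed 10 times on each array with a median SD of 0.03 among its spots, gave 1.2 at 6 h and 1.53 at 24 h.

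**Figure D1:**
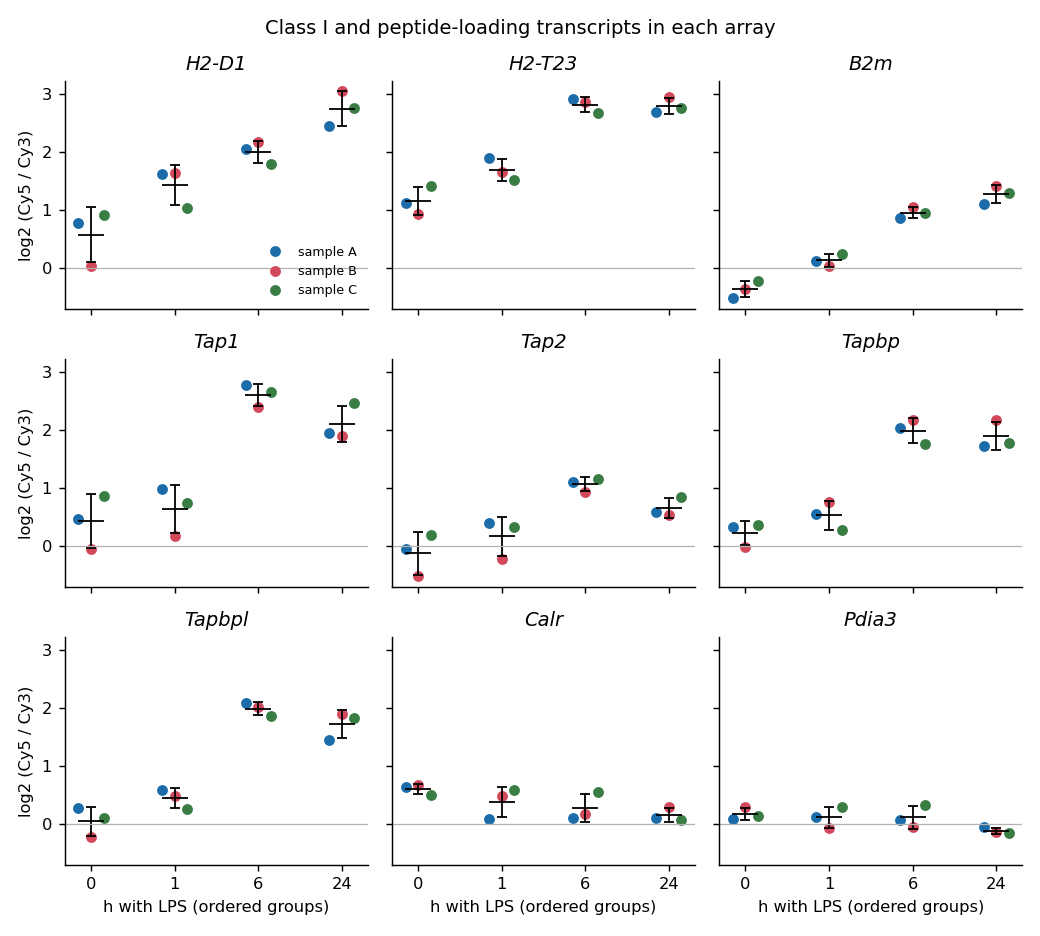
Log2 ratio of Cy5 to Cy3 (vertical axis) for each of the 9 measured genes in the 4 groups ordered by h with LPS (horizontal axis, not to scale); points are samples A, B and C, and bars give the mean and SD of 3 arrays. H2-D1 and B2m climbed to their highest group means at 24 h (2.75 and 1.27), Tap1 and Tap2 had their highest at 6 h (2.61 and 1.07), and Calr and Pdia3 stayed within a range of group means of 0.45 and 0.29.

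The transporter genes were not called at 1 h and had their highest group means at 6 h. At 1 h the difference from unstimulated cells was 0.204 for Tap1 (95% interval -0.338 to 0.747) and 0.292 for Tap2 (-0.135 to 0.719). With slide as a block it was 0.557 and 0.514, also not called, so a rise by 1 h is neither shown nor excluded. Tap1, an ATP-binding cassette subunit of the peptide pump, was at 0.48, -0.05 and 0.87 in unstimulated samples A, B and C and at 0.99, 0.18 and 0.74 at 1 h. At 6 h it was at 2.77, 2.40 and 2.65 and at 24 h at 1.95, 1.89 and 2.46. The 0 h and 1 h samples overlapped, with sample B lowest in both groups, and all later samples lay above them. Tap1 was 4.50-fold higher at 6 h than in unstimulated cells (2.17, SE 0.25, adjusted p = 3.1e-05) and 3.17-fold higher at 24 h (1.67, SE 0.25, adjusted p = 0.00023). Its 24 h mean was 0.50 below its 6 h mean, a difference that did not pass (95% interval -1.05 to 0.04, adjusted p = 0.19).

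Tap2, the partner subunit, followed the same order with smaller differences. Its ratios were -0.04, -0.52 and 0.20 at 0 h, 0.40, -0.22 and 0.34 at 1 h, 1.12, 0.93 and 1.16 at 6 h, and 0.60, 0.54 and 0.86 at 24 h. The 6 h samples were above all others, and the 24 h samples lay between them and the overlapping 0 h and 1 h samples. Relative to unstimulated cells Tap2 was 2.28-fold higher at 6 h (1.19, SE 0.20, adjusted p = 0.00046) and 1.72-fold higher at 24 h (0.78, SE 0.20, adjusted p = 0.0069). The 24 h call was lost with slide as a block (1.07, adjusted p = 0.066), with median centring (0.67, adjusted p = 0.18) and with every local background as deposited (0.78, adjusted p = 0.055). From 6 h to 24 h the mean differed by -0.41 (adjusted p = 0.18).

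The peptide editors were also higher at 6 h and 24 h. Tapbp encodes tapasin, which bridges the heavy chain to the transporter and favours stable peptides. It was at 0.33, 0.00 and 0.37 at 0 h, 0.56, 0.77 and 0.28 at 1 h, 2.04, 2.17 and 1.76 at 6 h, and 1.73, 2.17 and 1.78 at 24 h. The early samples overlapped each other, as did the late ones, and every late sample was above every early one. Tapbp was 3.38-fold higher at 6 h (1.76, SE 0.17, adjusted p = 8.3e-06) and 3.16-fold higher at 24 h (1.66, SE 0.17, adjusted p = 1.9e-05). Its dimmer probe also rose, by 1.14 at 6 h and 0.97 at 24 h (adjusted p = 7.4e-05 and 0.00026), so the size of the change depended on the probe by over 1.5 times in fold.

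Tapbpl encodes TAPBPR, a tapasin relative that edits peptides without being bound to the transporter. Its ratios were 0.28, -0.22 and 0.11 at 0 h, 0.60, 0.49 and 0.26 at 1 h, 2.08, 2.01 and 1.86 at 6 h, and 1.46, 1.89 and 1.83 at 24 h. At 1 h the lowest sample fell just below the highest unstimulated one, and the 6 h and 24 h samples stood clear of both. The gene was 3.82-fold higher at 6 h (1.93, SE 0.16, adjusted p = 2.0e-06) and 3.19-fold higher at 24 h (1.67, SE 0.16, adjusted p = 9.2e-06).

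The general chaperones of the loading complex were called higher in no comparison. Calr, the lectin-like chaperone that binds the sugar of the new heavy chain, was at 0.64, 0.68 and 0.51 at 0 h, 0.09, 0.49 and 0.59 at 1 h, 0.11, 0.19 and 0.55 at 6 h, and 0.12, 0.30 and 0.08 at 24 h. All 24 h samples were below all unstimulated ones, while the 1 h and 6 h samples spanned most of the range between. At 24 h Calr was 1.36-fold lower than in unstimulated cells (-0.45, SE 0.15, adjusted p = 0.035), and at 6 h the difference did not pass (-0.32, adjusted p = 0.12). The other probe of Calr, which is dimmer, showed no such difference at 24 h (-0.06, SE 0.15, adjusted p = 0.77). The call was also lost without the unstimulated arrays of A (-0.43) or B (-0.41) or the 24 h arrays of A (-0.42) or C (-0.40), and also with median centring (-0.71, adjusted p = 0.097). The slide-blocked model kept it (-0.99, adjusted p = 0.026).

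Pdia3, the oxidoreductase that pairs with tapasin, was at 0.09, 0.29 and 0.15 at 0 h, 0.12, -0.06 and 0.31 at 1 h, 0.07, -0.05 and 0.34 at 6 h, and -0.05, -0.13 and -0.15 at 24 h. The first 3 groups overlapped, and the 24 h samples lay below all unstimulated samples. At 6 h it differed from unstimulated cells by -0.06 (95% interval -0.34 to 0.23). The 24 h difference was -0.29 (SE 0.13, adjusted p = 0.10) and did not pass.

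Counted over the genes, 1 h after LPS 3 of the 9 were higher than in unstimulated cells and 0 lower, where 4.06% of all 11095 genes were called higher, 3.39% lower and 7.45% in either direction. They were H2-D1 (1.81-fold, 0.86, SE 0.24, adjusted p = 0.048), H2-T23 (1.45-fold, 0.53, SE 0.15, adjusted p = 0.047) and B2m (1.41-fold, 0.50, SE 0.12, adjusted p = 0.029), the heavy and light chains. In these 3 the groups did not overlap, against 30.7% of all genes, and in the other 6 they did. All 3 calls were close to the threshold and all were lost with slide as a block, where the differences were 1.04, 0.73 and 0.49 (adjusted p = 0.13, 0.085 and 0.23; 1.53% of all genes higher and 2.03% in either direction). In that model Tap1, Tap2 and Tapbpl differed by 0.557, 0.514 and 0.543, as much as B2m, and were not called either. That block rests on slide 1, with 1 LPS array against 3. None of the 3 passed without the unstimulated array of A or of B or without the 1 h array of A, and 1 passed without the 1 h array of B.

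At 6 h, 7 of the 9 were higher than in unstimulated cells and 0 lower, against 16.1% of all genes called higher, 23.5% lower and 39.6% in either direction. The median log2 difference of the 9 was 1.43, and that of all genes -0.04. These 7 were all but Calr and Pdia3, and in each the 6 h samples did not overlap the unstimulated ones, which held for 53.9% of all genes. With slide as a block the same 7 passed, with differences from 1.33 in B2m to 2.49 in Tap1 (8.54% of all genes higher, 9.02% lower and 17.6% in either direction). No slide held unstimulated beside 6 h cells, so these differences are linked only through the 1 h array of A on slide 1.

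At 24 h, 7 of the 9 were higher and 1, Calr, lower, against 18.0% of all genes higher, 21.5% lower and 39.4% in either direction. The median of the 9 was 1.63 and that of all genes 0.02. The 24 h samples stood clear of the unstimulated ones in all 9, against 52.3% of all genes. With slide as a block 6 of the 7 kept their call, all but Tap2, and Calr stayed lower (7.65% of all genes higher, 8.23% lower and 15.9% in either direction). The comparisons at 1, 6 and 24 h share the unstimulated arrays, and with slide as a block all 3 pass through the 1 h array of A.

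**Figure D2:**
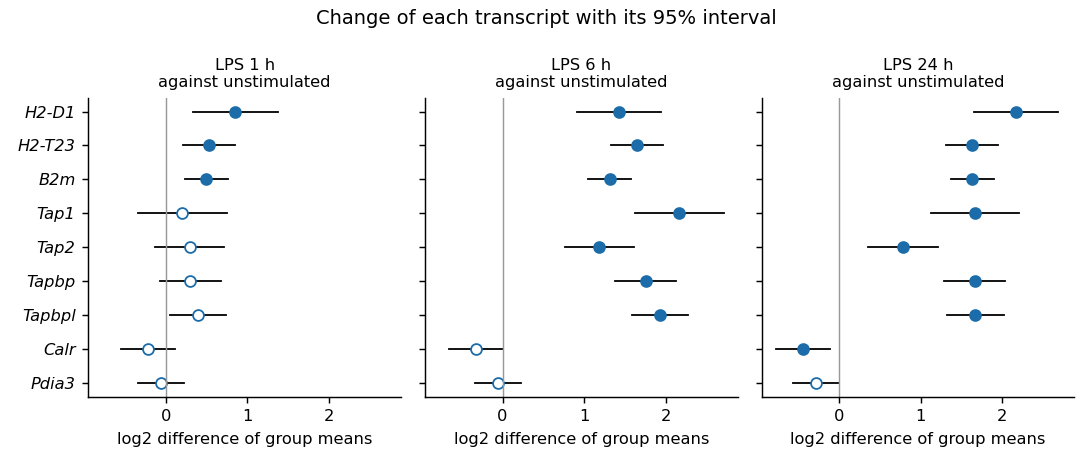
Difference of group means from unstimulated cells on the log2 scale (horizontal axis) for each measured gene at 1, 6 and 24 h; points are limma estimates from 3 arrays per group, lines their 95% intervals, and filled points passed at adjusted p under 0.05. At 6 h the filled points run from 1.19 (Tap2) to 2.17 (Tap1), and at 24 h from -0.45 (Calr) to 2.17 (H2-D1).

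Between the LPS groups, 6 of the 9 were higher at 6 h than at 1 h and 0 lower, against 12% of all genes higher, 16.2% lower and 28.2% in either direction. Tap1 differed the most, by 3.91-fold (1.97, SE 0.25, adjusted p = 9.7e-05), followed by Tapbpl at 2.90-fold, Tapbp at 2.74-fold and H2-T23 at 2.18-fold. The call of Tap2 (0.90, adjusted p = 0.0047) was lost with every local background as deposited (0.64, adjusted p = 0.17). The groups did not overlap in 7 of the 9, against 40.8% of all genes. This comparison can be read within slide 3, which held the 1 h array of C and the 6 h arrays of A and B, and there the differences were 1.84 for Tap1, 1.79 for Tapbpl, 1.83 for Tapbp and 1.37 for H2-T23. From 6 h to 24 h only H2-D1 was called, against 9.64% of all genes higher, 8.76% lower and 18.4% in either direction, and 4 of the 9 did not overlap between these groups, against 35% of all genes. At 24 h against 1 h, a comparison added to those of the plan, 6 of the 9 were higher, against 13.0% of all genes higher, 15.8% lower and 28.8% in either direction. Tap2 missed at 0.49 (adjusted p = 0.081) and passed with the donor letter as a block (0.49, adjusted p = 0.015). In 7 of the 9 the groups did not overlap, against 39.0% of all genes. The same 6 passed in the slide-blocked model, where 10.4% of all genes were higher, 12.4% lower and 22.8% called. In the F test for any difference among the 4 groups 7 of 9 passed, against 51.7% of all genes; Calr (adjusted p = 0.11) and Pdia3 (adjusted p = 0.25) did not.

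The heavy chain and the transporter were also set against each other on each array. Subtracting the log2 ratio of Tap1 from that of H2-D1 on each array gave 0.31, 0.08 and 0.04 at 0 h and 0.62, 1.46 and 0.30 at 1 h. It gave -0.72, -0.23 and -0.85 at 6 h and 0.50, 1.15 and 0.29 at 24 h. The 6 h samples were below all others, and the 1 h and 24 h samples overlapped. From 6 h to 24 h the mean shift was 1.24. In an exact two-sided permutation test of 3 against 3 arrays p was 0.1, the smallest value this design can give, so it cannot pass 0.05. The pair was chosen after its values were seen.

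Each dye channel was also read on its own, after scaling between arrays, because a ratio can move with the reference. The Cy5 means of H2-D1 went from 13.73 at 0 h to 15.67 at 24 h on the log2 intensity scale, while its Cy3 means went from 13.15 to 12.93. Tap1 went from 8.26 to 10.55 in Cy5 between 0 h and 6 h and from 7.82 to 7.94 in Cy3. In these genes most of the difference lay in the sample channel. B2m rose from 13.896 at 0 h to 15.223 at 24 h in Cy5, while its Cy3 mean fell from 14.253 to 13.949, which added to its ratio. For Calr the difference lay in both channels, since its Cy5 mean went from 12.21 at 0 h to 11.98 at 24 h and its Cy3 mean from 11.60 to 11.82. The reference stood apart on slide 2, which held the 1 h and 24 h arrays of B. There the Cy3 signal of Tap2 was 8.48 and 8.64, against 7.55 to 7.73 on the other 10 arrays, that of H2-T23 12.61 and 12.87 against 11.99 to 12.36, and that of Calr 12.01 and 12.04 against 11.55 to 11.73. The Cy3 signals of Tapbp and Tapbpl were lower there instead. They were 12.249 and 12.321 against 12.471 to 12.633 for Tapbp, and 8.766 and 8.915 against 8.984 to 9.227 for Tapbpl. Without the 24 h array of B the differences from unstimulated cells were 0.85 for Tap2 (adjusted p = 0.012), 1.56 for H2-T23 (4.2e-05) and -0.51 for Calr (0.038), and all 3 kept their call. So did Tapbp (1.523, adjusted p = 8.7e-05) and Tapbpl (1.59, adjusted p = 5.9e-05). With the Cy5 channel alone Calr lost its call at 24 h (-0.23, adjusted p = 0.39), and the steps from 1 h to 6 h of H2-T23 (0.68, adjusted p = 0.066) and Tap2 (0.66, adjusted p = 0.06) lost theirs.

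**Figure D3:**
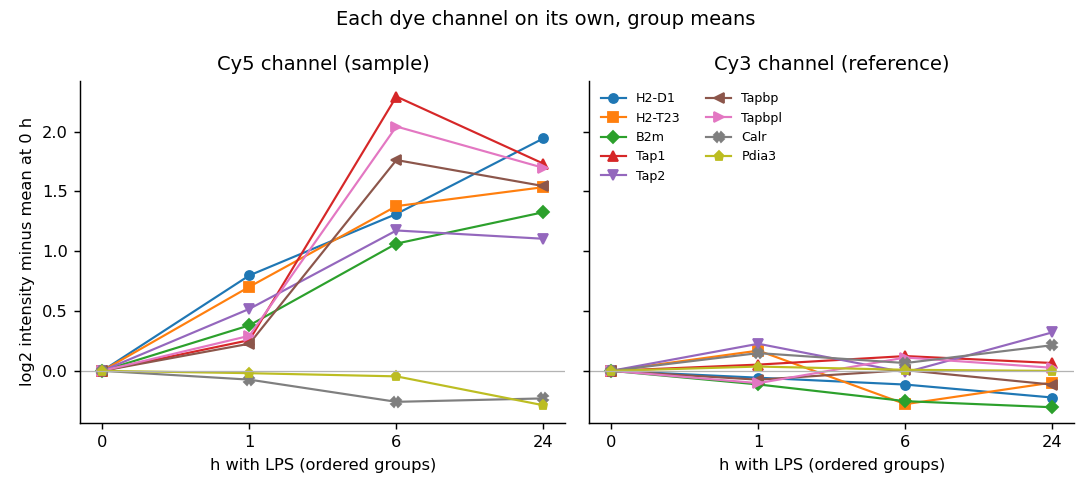
Group means of log2 intensity minus the mean at 0 h (vertical axis) in the Cy5 sample channel (left) and the Cy3 reference channel (right), by h with LPS (horizontal axis, ordered groups not to scale), 1 line per gene. In Cy5 the 7 rising genes separate from Calr and Pdia3. Their Cy3 lines stay closer to 0 than their Cy5 lines at 6 h and 24 h, while that of Calr moved about as far up by 24 h (11.60 to 11.82) as its Cy5 line moved down (12.21 to 11.98).

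Other genes of the pathway were read from lists chosen with earlier results of these data known. At 1, 6 and 24 h 4.06%, 16.1% and 18.0% of all genes were higher and 3.39%, 23.5% and 21.5% lower. The closest relatives are the other class I and class I-like heavy chains, of which 14 of 25 listed could be tested. At 1, 6 and 24 h 6, 11 and 12 of them were higher and 0, 2 and 2 lower, with medians of 0.61, 1.41 and 1.94. H2-Q8 was 4.51-fold higher at 6 h and 8.39-fold at 24 h (3.07, SE 0.33, adjusted p = 2.2e-05), H2-T22 4.75-fold and 4.73-fold, H2-T10 3.65-fold at 6 h, and H2-Q7 4.29-fold at 24 h. The 2 that fell at 6 h and 24 h were Fcgrt, the neonatal Fc receptor, and Hfe, an iron regulator, while Cd1d1 and Mr1, which present lipids and small metabolites, were higher at 24 h (1.38 and 1.24); these 4 were named after their values were seen. Like H2-D1, the H2-Q genes cannot be told apart with certainty from their paralogs.

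Upstream of the transporter, 9 of 10 genes of the proteasome subunits and activators that serve class I were tested, and 0, 4 and 4 were higher and 0, 1 and 0 lower at 1, 6 and 24 h. The interferon-inducible catalytic subunit Psmb9 rose 2.15-fold at 6 h (1.10, SE 0.13, adjusted p = 3.1e-05) and 1.72-fold at 24 h, the activator subunit Psme1 1.68-fold and 1.69-fold, and the constitutive subunit Psmb6 1.94-fold and 1.67-fold. The constitutive subunit Psmb5 was 1.27-fold lower at 6 h (-0.35, adjusted p = 0.039). The inducible subunit Psmb8 rose 1.26-fold at 24 h, and the inducible subunit Psmb10, named after its values were seen, did not pass (0.33 at 6 h, -0.22 at 24 h). Of 9 peptidases that trim or destroy peptides, 0, 2 and 0 were higher and 0, 3 and 3 lower. Set beside both lists, 4.06%, 16.1% and 18.0% of all genes were higher and 3.39%, 23.5% and 21.5% lower. Lnpep, the endosomal aminopeptidase IRAP, was 2.33-fold higher at 6 h and Lap3 1.74-fold, while Ide was 1.78-fold lower at 6 h and 1.35-fold lower at 24 h. The list medians at 6 h were 0.32 for the proteasome genes and -0.05 for the peptidases, against -0.04 for all genes.

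Calr and Pdia3 belong to a wider set of chaperones and quality-control factors of the endoplasmic reticulum. Of 24 others tested, 0, 2 and 1 were higher and 0, 4 and 8 lower at 1, 6 and 24 h, with medians of 0.03, -0.13 and -0.10. Over all genes 23.5% were lower at 6 h and 21.5% at 24 h, so the share of this list that fell was below that of all genes at 6 h and above it at 24 h. Sdf2l1, a component of the chaperone complex of the endoplasmic reticulum, was 2.13-fold lower at 24 h, the oxidase Ero1b 1.92-fold lower at 6 h and 1.95-fold at 24 h, Hyou1 1.55-fold and 1.64-fold lower, and Creld2 2.24-fold and 1.65-fold lower. Sel1l, which serves disposal of misfolded proteins, was 1.53-fold higher at 6 h. Of 14 genes of translocation and export from the endoplasmic reticulum, 0, 1 and 4 were higher and 0, 5 and 4 lower. Among all genes 16.1% were higher and 23.5% lower at 6 h, and 18.0% higher and 21.5% lower at 24 h. The cargo receptor Surf4 was 1.95-fold higher at 6 h and Tmed10, a cargo receptor of transport vesicles, 1.44-fold higher at 24 h, while the sorting factor Bcap29 fell by 0.74 at 6 h and 0.71 at 24 h, and the translocon subunits Sec61a1 (-0.48) and Sec61b (-0.72) were lower at 24 h.

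Among 18 tested transcription factors with known roles at class I promoters, 1, 8 and 9 were higher and 0, 1 and 1 lower at 1, 6 and 24 h, with medians of 0.15, 0.34 and 0.43. The shares of all genes were 4.06%, 16.1% and 18.0% higher and 3.39%, 23.5% and 21.5% lower. At 1 h the called gene was the NF-kB subunit Rela (1.70-fold, 0.76, SE 0.17, adjusted p = 0.018). By 6 h Irf7 was 10.9-fold higher (3.44, SE 0.24, adjusted p = 4.6e-07), Stat2 7.01-fold and Irf1 4.65-fold. At 24 h Irf7 stood at 16.1-fold, Stat2 at 3.90-fold, Irf8 at 3.00-fold and Irf1 at 2.63-fold. No probe was matched for Nlrc5, the class I transactivator.

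Genes of MHC class II presentation were read for comparison, and 2, 3 and 1 of 12 were higher and 0, 1 and 1 lower, with medians of 0.24, 0.36 and 0.22. Ctss, which cuts the invariant chain, was 1.61-fold higher at 6 h and H2-Aa 1.51-fold, and H2-DMa, part of the class II peptide editor, was 1.66-fold lower at 6 h and 2.18-fold lower at 24 h. Whether class I and class II genes differed as groups was not tested. Of 6 tested genes of a mixed list of receptors and ligands on the cell surface, 2, 3 and 1 were higher and 1, 1 and 1 lower. For this list and the class II list, the shares of all genes were 4.06%, 16.1% and 18.0% higher and 3.39%, 23.5% and 21.5% lower. The inhibitory ligand Cd274 was 2.16-fold higher at 1 h, 2.04-fold at 6 h and 2.23-fold at 24 h, and the inhibitory receptor Lilrb4a 1.89-fold at 1 h and 2.16-fold at 6 h. The gene called lower was Klrd1, the CD94 chain of the receptor for Qa-1; it was well above background on 2 of 3 arrays at 1 h and 6 h and on 0 of 3 at 24 h, so no size is given.

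**Figure D4:**
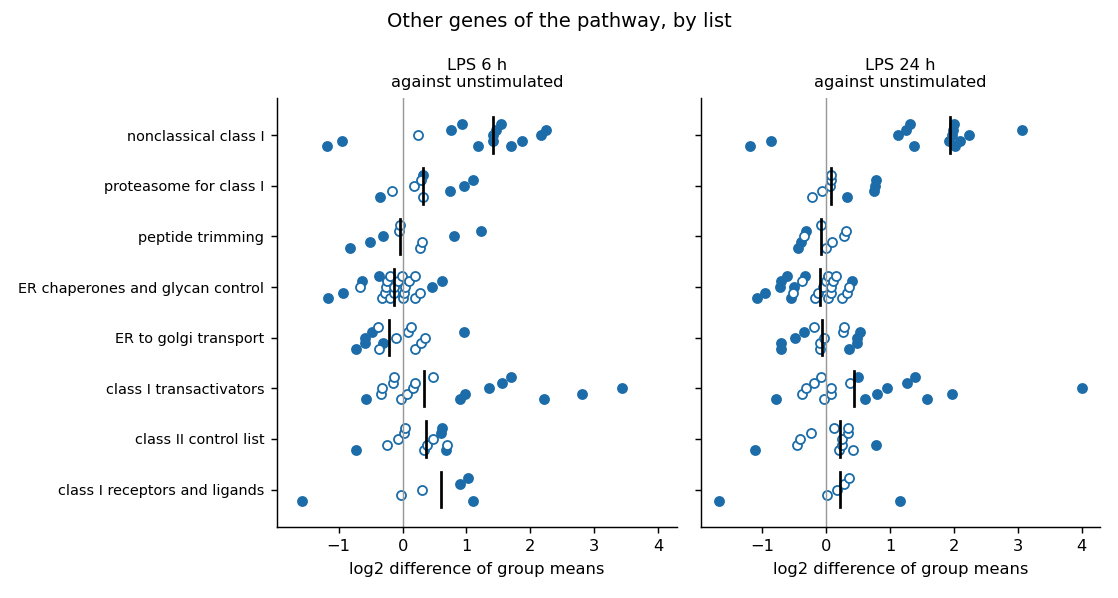
Log2 difference from unstimulated cells (horizontal axis) at 6 h (left) and 24 h (right) for the tested genes of each list (vertical axis), 1 point per gene, filled where adjusted p was under 0.05, with the list median as a bar. The heavy chain list has medians of 1.41 and 1.94, and the chaperone list of -0.13 and -0.10.

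For each gene the 3 non-member genes most like it across the 12 arrays were taken by Pearson correlation of log2 ratios. The arrays fall into 4 groups, so this likeness mostly describes the group means and is given without a test. H2-D1 was most like H2-Q7 (r = 0.997), H2-Q2 (0.995) and H2-Q10 (0.993), all class I paralogs. H2-T23 was most like H2-T22 (0.989), which was also among the 3 of Tapbpl (0.988). Shisa5 came among the 3 nearest of H2-T23 (0.987), Tapbp (0.992) and Tapbpl (0.987), and Akr1a1 was the nearest of both Tap1 (0.988) and Tap2 (0.973). B2m had Tma16 (0.987), Prdx5 (0.985) and Lgals3bp (0.984). Pdia3 was most like the chaperones Pdia6 (0.949) and Manf (0.936) with Shc1 (0.940) between them, and Pdia6 and Manf were lower at 24 h (-0.61, adjusted p = 0.013, and -0.51, adjusted p = 0.029). The nearest gene of Calr was Rbm19, at a lower r of 0.882.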

How the data were processed

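The deposited scanner files were written by Agilent Feature Extraction 10.7.3.1 (protocol GE2_107_Sep09), per the file headers, and give unnormalized median intensities for each spot and its surroundings. A further deposited table gives the authors' log2 ratios. The submitters' processing notes name limma, and the other steps behind the table are not stated in the labels. Its columns correlated with the ratios derived here at r of 0.999 or more, in the same direction and on the same scale.

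All further steps used R 4.3.3 and limma 3.58.1. Median intensities were background-corrected with normexp (offset 50; local backgrounds marked as outliers replaced by the array median) and normalised within arrays by loess (span 0.3, control spots at weight 0). Loess assumes that most genes do not shift with intensity, and no dyes were swapped, so dye bias remains in levels but is common to all groups. Probes above background in Cy5 on all 3 arrays of at least 1 group were kept, and the brightest probe stood for each of 11095 genes. A model with 1 mean per group on 12 arrays (8 residual degrees of freedom) was fitted with empirical Bayes moderation. Adjusted p is Benjamini-Hochberg over all genes, two-sided, and under 0.05 is called. No probe of the 9 genes was saturated. The number of arrays limits the precision.

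The members and all lists were chosen with earlier results of these data known. From each other list, up to 4 called genes with the largest change per comparison are named, and exceptions are marked; 1 such gene is not reported here. The comparison of 24 h with 1 h, the NF-kB consensus, the interferon regulatory factor core and the ER stress response element were added after the data were seen. Slides come from the file headers. Deviations of same-letter arrays from their group means correlated at 0.21 to 0.55 between 1 h and 6 h and at 0.21 to 0.58 between 1 h and 24 h (3 pairs each). They correlated at -0.12 to 0.41 between 6 h and 24 h and at -0.21 to 0.17 between unstimulated and LPS arrays. Over all pairs of groups the median was 0.11 for the same letter (-0.21 to 0.584) and -0.013 for different letters (-0.528 to 0.406). The main fit took no letters as pairs in any comparison, and a letter-blocked fit is given where it changes a call. The labels do not state that a letter is 1 animal in every group, and the 1 h and 24 h arrays of B share a slide. The fit was also run on simulated data with known changes. These had independent noise on each array and no slide or letter effect, so the run does not address those effects. Alternatives covered background, scaling, filter, probe choice, slide, letter, single arrays and a 2-fold limit.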

Additional observations from a re-analysis of the deposited data

How the results depend on the processing

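The rises of H2-D1, H2-T23, B2m, Tap1, Tapbp and Tapbpl at 6 h and 24 h kept their direction and call under all 24 alternatives. So did that of Tap2 at 6 h, while at 24 h Tap2 lost its call under 4 of them and reversed under none. Over these 7 genes the differences ranged from 0.92 to 2.49 at 6 h and from 0.58 to 2.62 at 24 h. The lower call of Calr at 24 h was lost under 10 of the 24 alternatives and reversed under none. They include the mean of all kept probes (-0.253, adjusted p = 0.14) and every local background as deposited (-0.445, adjusted p = 0.073). The count of genes called at 1 h, 3, was 0 with every local background as deposited, median centring, the Cy5 channel alone, slide as a fixed block, only the 2 groups compared, or a 2-fold limit, and 1 with processed signals of the scanner, quantile scaling or no filter on dim probes; leaving out 1 array at a time it was 0 to 3. The count for 24 h against 6 h, 1, was 0 with every local background, processed signals, the Cy5 channel alone, no filter, slide as a fixed or random block, or a 2-fold limit, and 0 to 1 leaving out 1 array. With median centring it was 1 but of another gene, since H2-D1 lost its call and Tapbp was called lower (-0.55, adjusted p = 0.046). With single arrays left out the other counts were 7 to 8 at 6 h, 7 to 8 at 24 h, 6 to 6 for 6 h against 1 h and 7 to 7 in the F test. The count of 6 for 6 h against 1 h was 4 with the Cy5 channel alone or a 2-fold limit, 5 with every local background, and 7 with median centring or slide as a fixed block. With the donor letter as a replicate block the count for 6 h against 1 h was 6, as without it, and the counts were 2, 7 and 8 at 1, 6 and 24 h and 1130, 4698 and 4741 over all genes, against 827, 4397 and 4372 without it; H2-D1 lost its call at 1 h (adjusted p = 0.051) and from 6 h to 24 h (0.054), and Tap2 gained one from 6 h to 24 h (-0.41, adjusted p = 0.048). Over all genes 827, 4397, 4372, 3128 and 2042 passed at 1, 6 and 24 h, for 6 h against 1 h and for 24 h against 6 h, and 5739 in the F test. With median centring these were 225, 2018, 2335, 1450, 927 and 2795. With every local background 243, 2436, 1373, 790 and 3428 passed at 1 h, 6 h, for 6 h against 1 h, 24 h against 6 h and in the F test. With slide as a fixed block 225, 1949, 1762, 868 and 3145 passed at 1, 6 and 24 h, for 24 h against 6 h and in the F test. For 6 h against 1 h that block left 2728. With only the 2 groups 690 passed at 1 h and 1355 for 24 h against 6 h. The Cy5 channel alone gave 593 at 1 h, 2579 for 6 h against 1 h and 1619 for 24 h against 6 h. At 1 h 669 passed with processed signals, 1031 with quantile scaling and 719 with no filter. For 24 h against 6 h these were 1912 with processed signals, 1916 with no filter and 1842 with slide as a random block. A 2-fold limit left 278, 1314, 1332, 830 and 425. The 1 h count was 338 and 356 without the unstimulated arrays of A and B and 528 and 399 without the 1 h arrays of A and B; that for 24 h against 6 h was 1079, 1290 and 1270 without the 6 h arrays of A or B or the 24 h array of C, and that for 6 h against 1 h 2083 without the 6 h array of A. Median centring moved the median of all genes by -0.14, 0.09 and -0.13 at 1, 6 and 24 h, 0.22 from 1 h to 6 h and -0.22 from 6 h to 24 h.

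No called value changed sign. Among differences that were not called, 24 h against 6 h turned positive with every local background in H2-T23 (0.11), Tap1 (0.073), Tapbp (0.035) and Tapbpl (0.046), in H2-T23 with the Cy5 channel alone (0.16), quantile scaling (0.14) and the slide block (0.008), and in Calr with the Cy5 channel alone (0.029) and its other probe (0.11), and turned negative in B2m with median centring (-0.16). Median centring also turned Pdia3 at 6 h (0.055) and Calr from 1 h to 6 h (0.20), and the other probe turned Calr at 1 h (0.15). Leaving out single arrays gave ranges across 0 for Tap1 at 1 h (-0.037 to 0.432), Pdia3 at 1 h (-0.148 to 0.036) and 6 h (-0.163 to 0.029), H2-T23 from 6 h to 24 h (-0.096 to 0.032) and Calr from 6 h to 24 h (-0.207 to 0.013). The cause was not tested. The other probes were added as alternatives after the data were seen.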
